A study of Mus musculus with 9 samples.

Results

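Interleukin-10 (IL-10), its family member interleukin-19 (IL-19) and the 2 chains of the IL-10 receptor were followed with bulk RNA-seq in macrophages grown from mouse bone marrow. The 4 genes, Il10, Il19, Il10ra and Il10rb, were chosen by name from 22524 genes counted in each library, and all 4 had enough counts to be tested. Bone marrow-derived macrophages are primary cells that grow out of cultured marrow, here from C57BL/6 mice and over 7 days. The 9 libraries came from SRF-KO cells given lipopolysaccharide (LPS) for 6 h, from wild-type cells given LPS for 6 h (LPS control) and from wild-type cells left untreated (untreated control), with 3 libraries in each group. Serum response factor (SRF) drives the transcription of actin and immediate-early genes, and LPS is a bacterial membrane component sensed through Toll-like receptor 4. The labels give neither the way in which Srf was deleted nor the age of the mice, and they do not state whether replicates came from separate mice or dishes. All p-values therefore speak of the spread among these libraries, which may be technical. SRF-KO macrophages without LPS were not analysed here, and a response to LPS inside SRF-KO cells has no measurement.

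IL-10 is the main anti-inflammatory cytokine that macrophages release after sensing bacteria. It binds a receptor made of IL-10RA, the ligand-binding chain, and IL-10RB, a chain shared with receptors for IL-22 and lambda interferons. The receptor acts through the kinases JAK1 and TYK2 and the transcription factor STAT3, and lowers the output of many inflammatory genes. IL-19 belongs to the same family by sequence and gene structure, but it signals through IL-20RA and IL-20RB and not through the IL-10 receptor.

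Il10 and Il19 are neighbours on mouse chromosome 1 (GRCm38), Il10 (ENSMUSG00000016529) at 131019845 to 131024974 on the plus strand and Il19 (ENSMUSG00000016524) at 130932656 to 130940115 on the minus strand. Il10ra (ENSMUSG00000032089) lies on chromosome 9 at 45253837 to 45269149, minus strand, and Il10rb (ENSMUSG00000022969) on chromosome 16 at 91406164 to 91425834, plus strand. Of the 4 genes 1, Il19, matched the RefSeq promoter table (GRCm38.p6). Its promoter is shown as the sequence beside the Il19 values below. The 250 bases before the start of Il19, at chr1:130940116-130940365 on the minus strand, read as follows, with motif matches in capitals.
Il19 promoter: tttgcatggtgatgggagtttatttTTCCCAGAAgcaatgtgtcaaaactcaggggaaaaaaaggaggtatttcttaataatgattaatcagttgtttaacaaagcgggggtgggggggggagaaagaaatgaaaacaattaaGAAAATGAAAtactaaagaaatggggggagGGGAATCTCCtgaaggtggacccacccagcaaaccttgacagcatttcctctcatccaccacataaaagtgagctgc
From 5′ to 3′ the capitals mark a STAT site (TTCNNNGAA), the core of an interferon response element and an NF-kB site. Both strands were searched, and the 3 matches do not overlap each other. Windows of the same length matched these motifs in 7.02%, 2.98% and 3.9% of 32851 promoters. A CArG box, the motif that SRF binds, was not among the letters of this window (1.47% of promoters held it), nor were an AP-1 site (TGANTCA, 6.75%), a cAMP response element (TGACGTCA, 1.55%) or a TATA box (TATAAA, 12.4%). A match is a description of letters and not of binding.

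Total counts ranged from 16987011 to 24912173 in SRF-KO with LPS, from 15321839 to 19009123 in LPS control and from 15867737 to 17606538 in untreated control. Srf itself was at 1.05 ± 0.438, 57.6 ± 2.17 and 44.3 ± 4.54 CPM in these groups (normalised read counts, with libraries scaled by TMM factors, given as mean ± SD with n = 3 in each group, as for all levels below). Of 10 macrophage markers 9 were tested, and 3 of these were higher (Csf1r, Lyz2 and Cd14) and 6 lower in SRF-KO than in LPS control (median log2 fold change -1.12). By the same test, 39.1% of all tested genes were higher and 37.9% lower in that comparison. Csf1r averaged 2937 CPM in SRF-KO with LPS, 2285 CPM in LPS control and 2439 CPM in untreated control, Cd68 553, 1409 and 2015 CPM and Mrc1 6.86, 58.1 and 156 CPM in the same groups. Their part in the results below was not tested. Genes were called at an adjusted p below 0.05 in the quasi-likelihood test of edgeR, adjusted by the Benjamini-Hochberg method over 11560 tested genes. Scaling mattered: with library totals instead of TMM factors, the median log2 fold change of tested genes was 0.37 between SRF-KO and LPS control, -0.57 between LPS control and untreated control and -0.20 between SRF-KO with LPS and untreated control, against 0.01, -0.02 and -0.01 with TMM. The share of called genes that were higher went with it, at 74.3%, 23.7% and 36.3% with library totals, against 50.8%, 50% and 49.5% with TMM. The Y-linked genes Uty, Ddx3y, Kdm5d and Eif2s3y had 0, 1, 1 and 4 counts over the SRF-KO libraries, 942, 2082, 806 and 2161 over LPS control and 1176, 2608, 1206 and 2347 over untreated control. Loss of Srf and this difference between the animals cannot be told apart in any comparison below with SRF-KO.

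SRF-KO cells given LPS had less Il10, Il10ra and Il10rb than LPS control, whereas Il19 did not pass the test. In that comparison 77% of all tested genes were called, 39.1% higher and 37.9% lower, and for 78% the groups had separate ranges. LPS raised all 4 genes in control macrophages, although the direction of Il10rb turned with library totals. There 81.7% of tested genes were called, 40.8% higher and 40.8% lower, and 82.1% did not overlap. Against untreated control, SRF-KO cells with LPS had more Il10, Il19 and Il10ra and less Il10rb, the Il10ra call being lost with library totals. There 79.5% of tested genes were called, 39.4% higher and 40.1% lower, and 79.5% did not overlap. With shares this high, a call on a member is what most genes of the table also had, and the sizes and levels carry more than the counts. The 3 comparisons share libraries, so their values are not independent of each other.

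Il10, the cytokine gene itself, stood at an intermediate level in SRF-KO cells with LPS. It had 12.2, 14.4 and 13.1 CPM in SRF-KO with LPS (270, 373 and 232 counts), 45.3, 46.4 and 53.3 CPM in LPS control (562, 671 and 825 counts) and 3.23, 3.78 and 3.42 CPM in untreated control (67, 79 and 64 counts). The 3 groups did not overlap, and the highest SRF-KO library was below the lowest LPS control library. Between SRF-KO with LPS and LPS control, Il10 changed by -1.87 on the log2 scale (95% interval -2.02 to -1.71, adjusted p = 3.77e-23), a fold of 0.275. Only 4.72% of tested genes had a lower fold change in this comparison. LPS control was 13.9-fold above untreated control (log2 fold change 3.80, SE 0.0978, adjusted p = 7.09e-30), and 309 tested genes had a larger fold change. SRF-KO with LPS was 3.82-fold above untreated control (log2 fold change 1.93, SE 0.115, adjusted p = 5.42e-18). In bulk RNA, fewer cells that express a gene and less RNA per cell cannot be told apart.

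Il19 was nearly undetected without LPS and present in both LPS-treated groups at levels that overlapped. It had 14.7, 18.8 and 17.8 CPM in SRF-KO with LPS (326, 485 and 314 counts) and 17.9, 21.4 and 18.4 CPM in LPS control (222, 309 and 284 counts). In untreated control the libraries held 0, 0 and 2 counts. Both LPS-treated groups lay far above untreated control. The difference between SRF-KO with LPS and LPS control was -0.17 on the log2 scale (95% interval -0.36 to 0.02, adjusted p = 0.102). Its sign depended on the scaling, being 0.19 with library totals (adjusted p = 0.0679), and without replicate 2 of SRF-KO it was -0.26 and passed (adjusted p = 0.0247). Set against 2 counts over the untreated libraries, Il19 was higher by a ratio of 581 in LPS control (95% counting interval 160.3 to 4804) and by a ratio of 517 in SRF-KO with LPS (143 to 4273). These intervals cover counting error only.

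The contrast between both cytokine genes can also be given as a ratio within each library, where scaling between libraries plays no part. This ratio uses the same counts and is not a second observation. Per kilobase of annotated exon, the ratio of Il10 to Il19 was 0.726, 0.675 and 0.648 in SRF-KO with LPS and 2.22, 1.90 and 2.55 in LPS control. Il19 was thus the higher of the pair in every SRF-KO library and Il10 in every LPS control library. The mean log2 ratio differed by -1.69 (two-sided exact permutation test, p = 0.1, the smallest p that 3 against 3 libraries allow). With Benjamini-Hochberg adjustment over the 4 ratio comparisons made, the value stayed at 0.1. In untreated control Il19 had too few counts for a ratio.

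**Figure D1:**
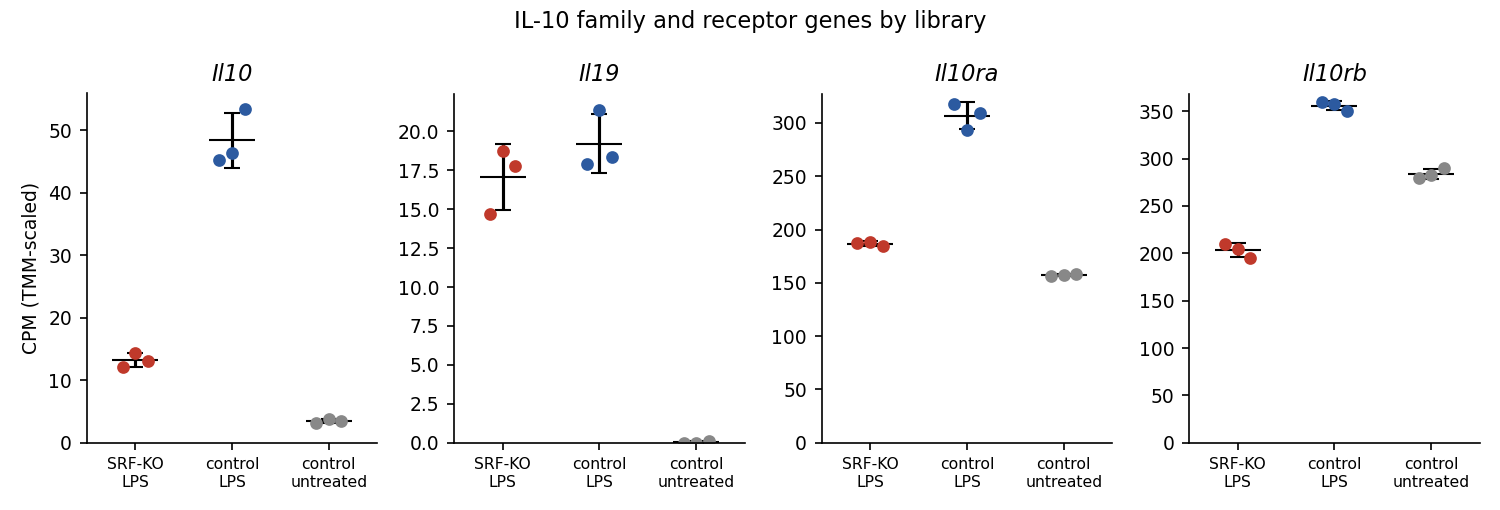
CPM of each gene (vertical axis, linear from 0) in SRF-KO with LPS, LPS control and untreated control. Points are libraries, horizontal lines are means and bars are SD (n = 3). Il10 sits between 12.2 and 14.4 CPM in SRF-KO with LPS and between 45.3 and 53.3 CPM in LPS control, whereas the Il19 points of these groups overlap.

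The receptor chains were abundant in all groups and varied over a narrow range. Il10ra, the ligand-binding chain, had 188, 188 and 184 CPM in SRF-KO with LPS, 318, 293 and 309 CPM in LPS control and 157, 157 and 158 CPM in untreated control. No groups overlapped, and SRF-KO with LPS lay nearer to untreated control. Il10ra was lower in SRF-KO than in LPS control by a log2 fold change of -0.71 (SE 0.0383, adjusted p = 2.51e-19), a fold of 0.609, and by -0.36 with library totals. LPS raised it 1.95-fold in control cells (log2 fold change 0.96, SE 0.0388, adjusted p = 2.11e-23), and with library totals the log2 value was 0.41. SRF-KO with LPS was 0.25 above untreated control on the log2 scale (SE 0.0388, adjusted p = 4.53e-07), but with library totals this was 0.054 and did not pass (adjusted p = 0.198).

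Il10rb, the shared chain, was the member whose level in SRF-KO cells with LPS lay below that of untreated wild-type cells. It had 210.1, 205 and 195 CPM in SRF-KO with LPS, 359, 357 and 350.2 CPM in LPS control and 279.7, 282 and 289.7 CPM in untreated control. The groups did not overlap, with SRF-KO lowest and LPS control highest. Il10rb differed by -0.81 on the log2 scale between SRF-KO and LPS control (SE 0.0381, adjusted p = 4.78e-21), a fold of 0.572 (-0.45 on the log2 scale with library totals), and by -0.48 between SRF-KO with LPS and untreated control (SE 0.0378, adjusted p = 2.42e-14). The rise with LPS in control cells was 1.25-fold (log2 fold change 0.32, SE 0.0376, adjusted p = 5.90e-10), and it turned to -0.22 with library totals (adjusted p = 9.49e-07). The direction of the Il10rb difference with LPS thus depended on the scaling.

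Counts of Il10rb also touch another gene. Gm21970 runs on the same strand across Ifnar2 and Il10rb, and all of its 884 annotated exon bases (GENCODE M21) fall within exons of these neighbours (0 in neither), 569 of them in Il10rb. These 569 bases are 14.9% of the 3808 exon bases of Il10rb. Gm21970 nevertheless held 27190 counts over the 9 libraries, so reads in the shared exons can belong to either gene, and how they were assigned is not given in the sources used here. Gm21970 was at 126 ± 3.48 CPM in SRF-KO with LPS, 235 ± 8.48 CPM in LPS control and 149 ± 2.69 CPM in untreated control. Summed with Il10rb, the level was 329 ± 10.7, 590.3 ± 13.2 and 433 ± 7.75 CPM, in the same order of groups as for Il10rb alone. Of the Gm21970 bases 315 lie in Ifnar2, so the sum can include reads of Ifnar2 exons or count shared reads more than once. Its order is therefore no check of Il10rb.

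**Figure D2:**
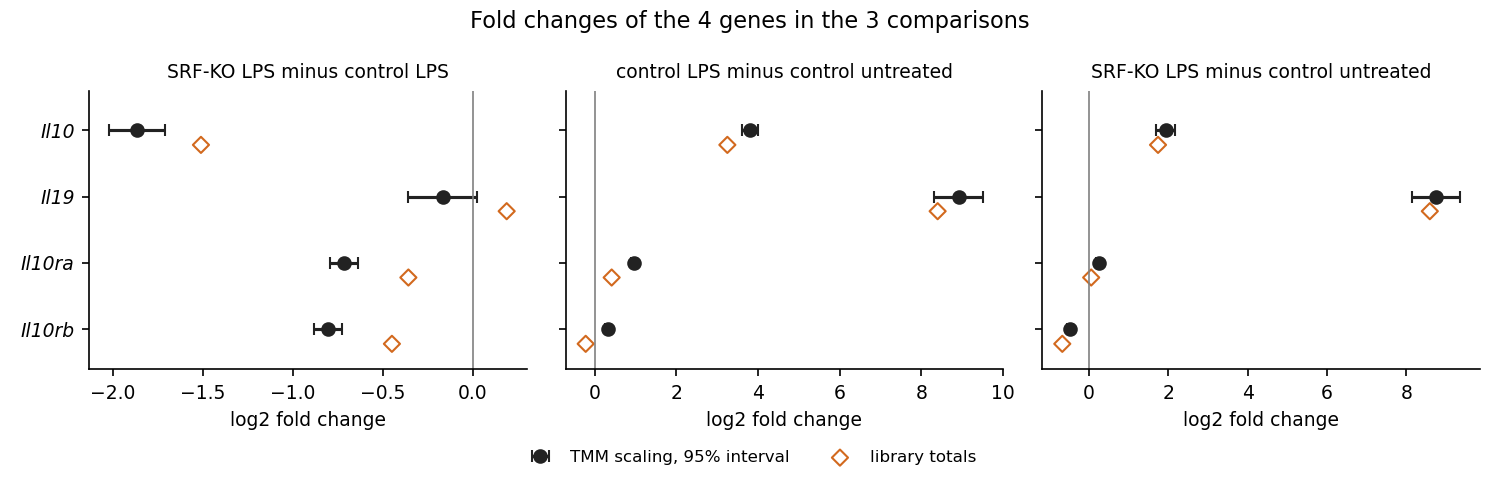
Log2 fold change (horizontal axis) of each gene in the 3 comparisons, as black points with 95% intervals under TMM scaling and as open diamonds with library totals. Il10, Il10ra and Il10rb lie below 0 between SRF-KO and LPS control under both scalings, whereas Il19 in that comparison (-0.17 and 0.19) and Il10rb with LPS (0.32 and -0.22) change sides. The fitted values of Il19 against untreated control rest on 2 counts in that group and are no measure of size.

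Per kilobase of exon the order of the 4 genes differed between groups. In SRF-KO with LPS, Il10ra and Il10rb stood at 53.4 ± 0.645 and 53.4 ± 2.01 CPM per kb and did not differ beyond their spread, followed by Il19 at 14.9 ± 1.85 and Il10 at 10.1 ± 0.867. In LPS control the order was Il10rb at 93.4 ± 1.25, Il10ra at 87.7 ± 3.66, Il10 at 36.9 ± 3.34 and Il19 at 16.7 ± 1.64 CPM per kb. Untreated control had Il10rb at 74.5 ± 1.37, Il10ra at 45.0 ± 0.166, Il10 at 2.65 ± 0.214 and Il19 at 0.0310 ± 0.0536 CPM per kb. Apart from the receptor pair in SRF-KO, neighbours in these orders had ranges that did not overlap. Levels of Il10rb per kb take all 3808 exon bases, including the 569 shared with Gm21970. The place of Il10rb beside Il10ra thus depends on how shared reads were assigned. Among all tested genes, Il10ra lay at percentile 92.9, 94 and 92.6 of the levels per kb in SRF-KO with LPS, LPS control and untreated control, and Il10 at percentile 66.1, 86.9 and 32.

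The receptor chains also differed in their ratio to each other. The ratio of Il10ra to Il10rb per kb was 0.972, 1.00 and 1.03 in SRF-KO with LPS, 0.964, 0.893 and 0.960 in LPS control and 0.610, 0.607 and 0.594 in untreated control. Both LPS-treated groups lay above untreated control in every library, and the lowest SRF-KO library was just above the highest LPS control library. Mean log2 ratios differed by 0.64 between LPS control and untreated control, by 0.73 between SRF-KO with LPS and untreated control and by 0.09 between SRF-KO and LPS control (two-sided exact permutation tests, each p = 0.1, the smallest possible). The ratio is free of scaling between libraries but takes the Il10rb exon length as annotated, shared bases included.

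**Figure D3:**
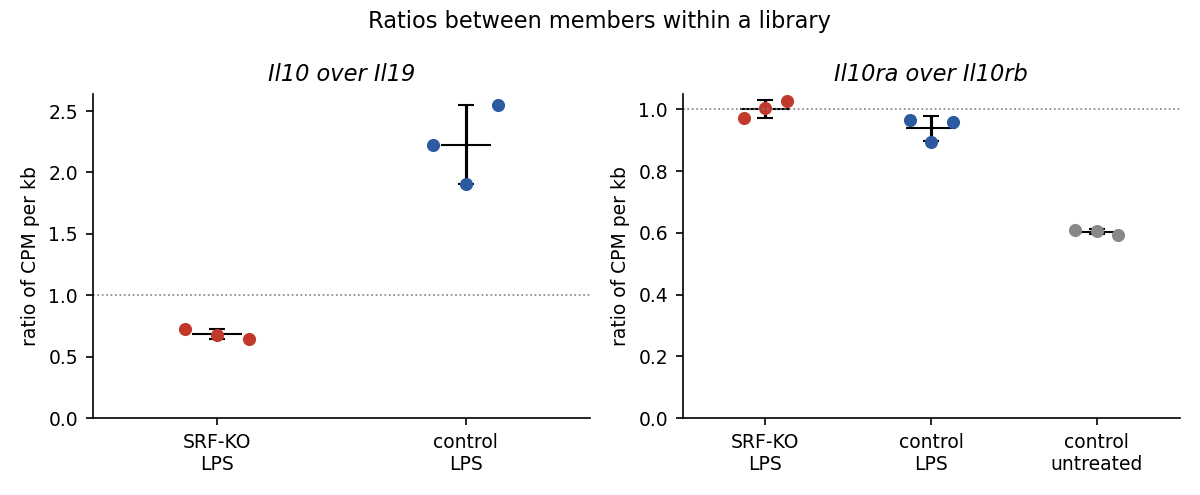
Ratios of CPM per kb (vertical axis, linear from 0) within each library, Il10 over Il19 on the left and Il10ra over Il10rb on the right. Points are libraries, lines are means and bars are SD (n = 3). The dotted line marks equal levels, which the Il10 to Il19 ratio of SRF-KO (0.648 to 0.726) stays below and that of LPS control (1.90 to 2.55) stays above.

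Other cytokines of the family were not detectable at this depth. Il20, Il22 and Il24 had 1 count each over all 9 libraries, and Iltifb, Ifnl2 and Ifnl3 had 0. None of these 6 genes had enough counts to be tested, and Il20 and Il24 lie beside Il19 on chromosome 1. Of the cytokine genes examined in the family, Il10 and Il19 were therefore the ones with counts that could be compared.

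Of 10 other receptors of the same structural class (class II cytokine receptors), 7 were tested. Against LPS control, 3 were higher and 4 lower in SRF-KO with LPS, and with LPS in control cells 5 rose and 1 fell. Over all tested genes, 39.1% were called higher and 37.9% lower in the former comparison, and 40.8% each way in the latter. Il20ra, which the IL-19 receptor needs, had 1 count over the 9 libraries, and Il22ra1 and Il22ra2 had 0. Il20rb, its partner chain, was at 18.6 ± 0.944 CPM in SRF-KO with LPS, 10.6 ± 0.954 CPM in LPS control and 1.48 ± 0.197 CPM in untreated control. It was higher in SRF-KO by 0.81 on the log2 scale (adjusted p = 4.05e-10) and rose with LPS by 2.84 (adjusted p = 8.24e-20). Ifnlr1, the lambda interferon receptor chain that pairs with IL-10RB, had 126 counts over the SRF-KO libraries, 3 over LPS control and 14 over untreated control. The ratio of SRF-KO to LPS control was 27.1 for Ifnlr1 (95% counting interval 9.06 to 133). F3, tissue factor, was at 23.6 ± 2.42 CPM in SRF-KO with LPS, 0.630 ± 0.266 CPM in LPS control and 0.101 ± 0.0563 CPM in untreated control.

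The interferon receptor genes around Il10rb were lower in SRF-KO than in LPS control, as Il10rb was. Ifnar2, a chain of the type I interferon receptor 0.575 kb from Il10rb, was at 200.3 ± 6.28 CPM in SRF-KO with LPS, 417 ± 9.14 CPM in LPS control and 142 ± 3.80 CPM in untreated control. Ifnar1, its partner chain 59.4 kb away on the other side, had a log2 fold change of -0.62 between SRF-KO and LPS control and 1.51 with LPS in control cells. Ifngr2, of the interferon gamma receptor, changed by -0.97 and 1.82, and Tmem50b, 149 kb away, by -0.98 and 1.55. All of these passed the test, as did 77% of all tested genes between SRF-KO and LPS control and 81.7% with LPS. Of all tested genes, 37.9% were called lower in the former comparison and 40.8% higher in the latter. Ifngr1, named as a class II receptor and not a neighbour, was lower both in SRF-KO against LPS control (-0.49) and with LPS in control cells (-0.72).

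Genes around Il10 were less alike. Mapkapk2, which encodes the kinase MK2 of the p38 pathway and lies 28.7 kb from Il10, was at 829 ± 15.4 CPM in SRF-KO with LPS, 1180.1 ± 5.08 CPM in LPS control and 202 ± 4.74 CPM in untreated control. Its log2 fold changes were -0.51 between SRF-KO and LPS control and 2.54 with LPS, the same directions as for Il10. Dyrk3, a kinase gene beyond it, went the other way in both, at 1.39 and -2.90, and Eif2d, a translation factor gene, fell in both, at -0.45 and -0.36. With library totals the Eif2d difference between SRF-KO and LPS control was -0.096 and did not pass (adjusted p = 0.269). Around Il10ra, BC049352 at 3.82 kb rose in both, by 0.85 and 1.26 on the log2 scale, and Fxyd2 at 130.5 kb passed in neither (0.32 and -0.13). These calls too depended on the scaling. With library totals the LPS rise of BC049352 did not pass (0.71, adjusted p = 0.0876). Fxyd2 then passed in both, at 0.67 (adjusted p = 0.0346) and -0.67 (adjusted p = 0.0398). The other 4 neighbours of Il10ra, Tmprss4, Jaml, Tmprss13 and Fxyd6, had too few counts to be tested.

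**Figure D4:**
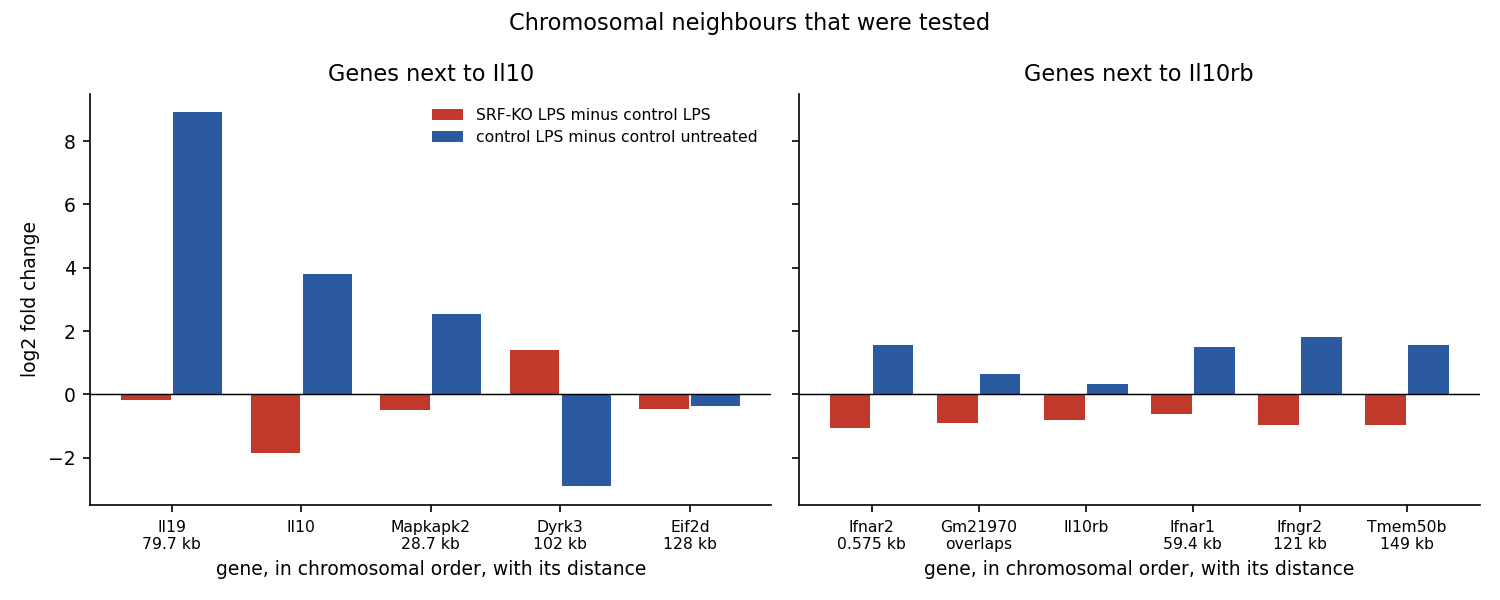
Log2 fold changes (vertical axis) of tested genes next to Il10 (left) and Il10rb (right), in chromosomal order and with the distance to Il10 or Il10rb under each name. For each gene, the left bar is SRF-KO minus LPS control and the right bar is LPS control minus untreated control. Around Il10rb every left bar is negative and every right bar positive under TMM scaling, whereas Dyrk3 near Il10 has the reverse signs. All annotated exon bases of Gm21970 lie within exons of Ifnar2 or Il10rb, so its bars are not independent of theirs. The LPS bar of Il19 rests on 2 counts in untreated control. With library totals the LPS bar of Il10rb is -0.22.

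Genes of IL-10 signalling were lower in SRF-KO cells. Of 7 such genes all 7 fell between SRF-KO and LPS control (median log2 fold change -1.01, against 0.01 over all tested genes), and 6 fell with library totals. Of all tested genes, 37.9% were called lower in this comparison. Socs3, which STAT3 induces and which dampens cytokine receptors, was at 734 ± 32.8 CPM in SRF-KO with LPS, 1506 ± 69.5 CPM in LPS control and 9.20 ± 0.984 CPM in untreated control. Stat3 was at 347 ± 8.21, 700.2 ± 13.1 and 124 ± 4.17 CPM in the same groups. Tyk2, the kinase that binds IL-10RB, changed by -1.54 on the log2 scale between SRF-KO and LPS control. With LPS in control cells 6 of the 7 rose, and Inpp5d, which encodes the phosphatase SHIP1, fell by 0.47 on the log2 scale. SRF-KO with LPS had 5 of the 7 higher and 2 lower than untreated control. Of all tested genes, 40.8% were called each way with LPS, and 39.4% higher and 40.1% lower between SRF-KO with LPS and untreated control.

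Of the genes known to be raised by IL-10 in macrophages, most were lower in SRF-KO. Between SRF-KO and LPS control 9 were lower and 3 higher (median -1.40), or 8 and 3 with library totals. Of all tested genes, 37.9% were called lower and 39.1% higher there. With LPS in control cells 12 of 12 tested rose (median 2.12, against -0.02 over all tested genes), or 11 with 1 lower under library totals, where Etv3 reversed. Of all tested genes, 40.8% were called higher with LPS. Fcgr1, a high-affinity Fc receptor, had log2 fold changes of -4.46 between SRF-KO and LPS control and 1.44 with LPS. Il4ra, a chain of the interleukin-4 receptor, was at 304 ± 6.72, 1567 ± 51.4 and 200.1 ± 13.1 CPM in the same groups. Zfp36, an mRNA decay factor, changed by -1.52 on the log2 scale between SRF-KO and LPS control. The 3 higher genes were Ddit4 (2.26), Nfil3 (1.24) and Hmox1, which encodes heme oxygenase 1 (0.53), of which Ddit4 and Nfil3 were named after their values were seen. Cd163, a scavenger receptor of the list, had too few counts to be tested, and both Cd163 and Fcgr1 are also in the macrophage marker list. Many genes of the list also respond to LPS or interferon without IL-10.

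Genes known to be lowered by IL-10 in LPS-treated macrophages included many that were highest in SRF-KO. Of 19 tested, 13 were higher and 5 lower in SRF-KO than in LPS control (median 1.70), or 15 and 4 with library totals. Of all tested genes, 39.1% were called higher and 37.9% lower there. Cxcl1 and Cxcl2, chemokines for neutrophils, were higher by 4.95 and 3.29 on the log2 scale, and Ptgs2, cyclooxygenase 2, was at 1833 ± 106 CPM in SRF-KO with LPS, 453 ± 5.79 CPM in LPS control and 0.924 ± 0.110 CPM in untreated control. Cxcl10, an interferon-induced chemokine, was lower by a log2 fold change of -2.75. The other lower genes, listed to complete the 5, were Cd86 (-1.93), Ccl4 (-1.03), Nos2 (-0.53) and Il12b (-0.099, but 0.26 with library totals). Tnf, the 1 gene that did not pass and named for that reason, had a log2 fold change of 0.07 (adjusted p = 0.102). With library totals Tnf was at 0.42 and passed (adjusted p = 4.62e-13). Whether the lower Il10 had a part in any of these differences was not tested. With LPS in control cells all 19 were called higher (median 6.07), or 17 with library totals (median 5.52). Of all tested genes, 40.8% were called higher with LPS.

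Known regulators of Il10 transcription moved in both directions, as tested genes at large did. Of 26 tested, 13 were higher and 7 lower in SRF-KO than in LPS control (median 0.17), but 20 were higher and 4 lower with library totals. Over all 11560 tested genes, 39.1% were called higher and 37.9% lower in this comparison. With library totals 7059 of these were called higher and 2437 lower. Maf, a factor that activates Il10 in macrophages, was at 162 ± 6.36 CPM in SRF-KO with LPS, 808 ± 40.3 CPM in LPS control and 205 ± 1.82 CPM in untreated control. Map3k8, the kinase TPL2 upstream of ERK, was at 27.3 ± 1.84, 96.0 ± 2.68 and 18.4 ± 0.716 CPM. Both were lower in SRF-KO than in LPS control, as Il10 was, but Maf in SRF-KO also lay below untreated control. Bhlhe40, known as a repressor of Il10 in T cells, was at 142 ± 2.96 CPM in SRF-KO with LPS, 23.3 ± 1.92 CPM in LPS control and 22.8 ± 1.90 CPM in untreated control. Ahr, the aryl hydrocarbon receptor, was at 62.9 ± 3.79, 7.99 ± 1.28 and 1.41 ± 0.148 CPM. Prdm1, which encodes BLIMP-1, did not pass between SRF-KO and LPS control (log2 fold change 0.12, adjusted p = 0.0662). With library totals Prdm1 was at 0.47 and passed (adjusted p = 2.01e-09). With LPS in control cells 16 rose and 4 fell, or 12 each way with library totals. Of all tested genes, 40.8% were called in each direction with LPS.

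**Figure D5:**
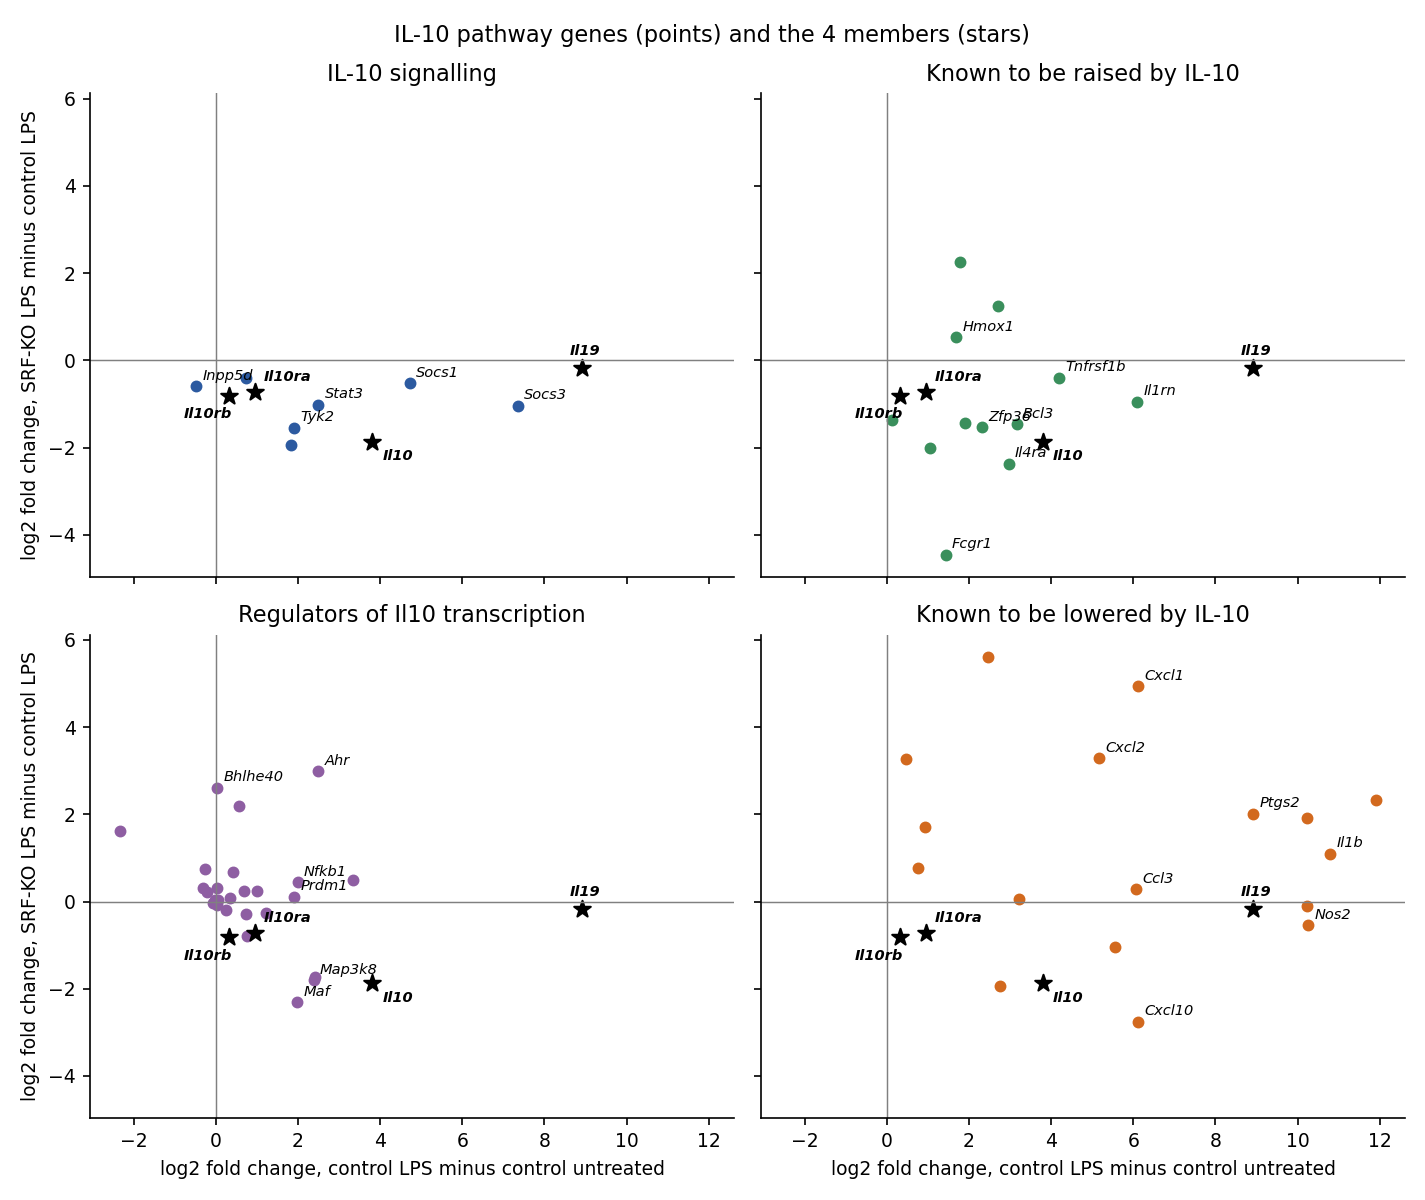
Tested genes of 4 lists, with the log2 fold change of LPS control minus untreated control on the horizontal axis and of SRF-KO minus LPS control on the vertical axis. Points are list genes, stars are the 4 members, and labels mark some of the genes named by rule. All 7 signalling genes lie below the horizontal line, whereas the genes known to be lowered by IL-10 lie on both sides of it, from Cxcl10 at -2.75 to above Cxcl1 at 4.95. Il23a and Csf3, with 0 counts in untreated control, are not drawn.

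Likeness to each member was measured as the Euclidean distance between log2 CPM profiles over the 9 libraries, centred on each gene's mean, among 11166 genes. Nearest to Il10 were Casp4, an inflammatory caspase, at a distance of 0.363 (log2 fold changes -1.80 between SRF-KO and LPS control and 3.62 with LPS), Adgb at 0.429 and Dtx2 at 0.499. Nearest to Il19 were Hdc, histidine decarboxylase, at 0.889, Plat, tissue plasminogen activator, at 0.967 and Acod1, which makes itaconate, at 0.969. Plat had log2 fold changes of -0.01 between SRF-KO and LPS control, which did not pass, and 7.68 with LPS. With library totals the former was 0.34 and passed (adjusted p = 0.000899). Nearest to Il10ra were Ncoa5 at 0.0697, H2afy at 0.120 and Ptcd1 at 0.121, and nearest to Il10rb were Nckap1l, a leukocyte actin regulator, at 0.119 and Slc44a2 at 0.158. Distances are smaller for the receptors, whose levels spanned a narrower range. The points share their libraries, so likeness is a description.

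Other cells that can make IL-10 left few counts. Summed over 6 B cell markers the level was 0.116 to 0.340 CPM in SRF-KO with LPS, 0.905 to 1.45 CPM in LPS control and 1.58 to 2.17 CPM in untreated control, and over 8 T cell markers 0.283 to 0.503, 2.07 to 2.90 and 3.90 to 6.56 CPM. Cd4 made up most of the T cell sum in both control groups, and Cd5 in SRF-KO. The T cell receptor genes Cd3d and Cd3g had 0 counts in all libraries, as did 5 of 7 mast cell markers. Neutrophil markers summed to 18.6 to 20.4 CPM in SRF-KO with LPS, 6.27 to 7.39 CPM in LPS control and 1.71 to 2.30 CPM in untreated control, while Elane had 0 counts. S100a8 made up most of the neutrophil sum in both LPS-treated groups. S100a9 ran the other way, at 0.434, 0.566 and 0.883 CPM in SRF-KO with LPS, LPS control and untreated control. Dendritic cell markers, with Ccr7 the highest, summed to 11.4 to 12.4, 3.11 to 4.43 and 0.801 to 0.909 CPM. Fibroblast and epithelial markers reached at most 0.360 CPM. B and T cell marker sums were thus lower in SRF-KO than in LPS control, as Il10 was, and lower in LPS control than in untreated control, unlike Il10. The difference between SRF-KO and LPS control rested mostly on Cd79b (0.121 and 0.885 CPM) for B cells and on Cd4 (0.0129 and 2.20 CPM) for T cells. Cd5 was at 0.341 and 0.238 CPM in these groups and did not pass. Neutrophil and dendritic cell marker sums were higher in SRF-KO, as many genes lowered by IL-10 were, but they rested mostly on S100a8 and Ccr7. Camp, also a neutrophil marker, was called higher in SRF-KO than in LPS control (2.60 against 1.08 CPM), whereas S100a9 did not pass. The remaining markers of these lists had few counts and went both ways. Zbtb46 was at 0.394 and 0.294 CPM and Clec9a at 0.191 and 0.333 CPM in SRF-KO with LPS and LPS control. The part of these markers in the results was not tested.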

How the data were processed

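RNA was read from stranded TruSeq libraries, per the labels. Each deposited table lists an Ensembl identifier and a raw count, per the file headers. Per the submitters' processing notes, the tools were STAR 2.5.4b, featureCounts, Trimmomatic, bcl2fastq 2.19 and edgeR, on GRCm38. Options, annotation release and strand setting were not given in the sources. Symbols were found for 22214 of 22524 identifiers, and coordinates and exon lengths are from GENCODE M21 (GRCm38).

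Samples were grouped by their labels. The test used edgeR 4.0.16 under R 4.3.3 (filterByExpr, TMM, robust glmQLFit, glmQLFTest, all 9 libraries in 1 fit with group as the only term), with limma 3.58.1 and DESeq2 1.42.0 as alternatives. Steps were tested on simulated data. Replicate pairs differed by more than sampling noise (chi-square per degree of freedom 1.75 to 3.95). A group with 0 counts was set to 3 counts over the group, and 1 to 3 counts gave an exact 95% counting interval. The log2 CPM used a prior count of 2.

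Members and lists were chosen with earlier results of these data known. Named genes were Srf, the members, other family cytokines and class II receptors, up to 4 genes per list and comparison by smallest p, 3 chromosomal neighbours a side, and 3 nearest profiles per member. Some genes that this rule names are not reported here. Alternatives covered scaling, filter, tool, libraries in the fit, a replicate block and leaving out each library.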

Additional observations from a re-analysis of the deposited data

How the results depend on the processing

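Of 12 fold changes (4 genes in 3 comparisons), 9 kept their direction and their side of the threshold under all 17 alternatives. With library totals in place of TMM, Il10rb with LPS in control cells became -0.22 (adjusted p = 9.49e-07), Il19 between SRF-KO and LPS control became 0.19 (adjusted p = 0.0679) and Il10ra between SRF-KO with LPS and untreated control became 0.054 (adjusted p = 0.198). The scaling factors themselves differ between groups, from 1.04 in SRF-KO with LPS and 0.810 to 0.814 in LPS control to 1.18 to 1.19 in untreated control. Leaving out each library in turn, Il19 between SRF-KO and LPS control ranged from -0.26 to -0.067, and it passed without replicate 2 of SRF-KO (adjusted p over all alternatives from 0.0247 to 0.536). The cause was not tested. Il10 between SRF-KO and LPS control ranged from -1.94 to -1.51 over all alternatives. Counts of called genes stayed within 1.5 times. Correlations of deviations between same-numbered replicates were weak (-0.0746 to 0.0971), as between differently numbered ones (-0.11 to 0.111). Between SRF-KO and LPS control they were 0.0654, 0.0971 and 0.018 for same numbers, and -0.0725 to 0.00672 for different numbers. Such values cannot decide whether the numbers pair the libraries. With the replicate block 9467, 8919 and 9231 genes were called against 9443, 8905 and 9192 without it, for LPS in control cells, SRF-KO against LPS control and SRF-KO with LPS against untreated control, and no call on the 4 genes changed. Depth limits Il19 in untreated control and the family cytokines with at most 1 count.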
